A study of Mus musculus with 4 samples.

Results

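The transforming growth factor beta (TGF-beta) superfamily was followed as 52 genes chosen by symbol: ligands, proteins that store or block them, receptors, SMADs, ubiquitin ligases, corepressors and ID targets. All 52 were among the 55536 rows of the deposited table. RNA came from the stromal vascular fraction, the non-fat cells released from fat tissue, of inguinal white fat of wild-type male mice at postnatal day 21. The 4 libraries were ObF1 given 1,3BD, LnF1 given 1,3BD, ObF1 given water and LnF1 given water, where ObF1 and LnF1 are the offspring groups of a series on obesity of the parents and 1,3BD is written as in the labels. Each library was 1 pool of 3 mice, so no group had a replicate. The standard errors below rest on how far a difference failed to repeat between pools, drawn toward that of other genes of similar level. In them, spread between pools and a real dependence of the treatment difference on the parents cannot be told apart.

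TGF-beta superfamily ligands are secreted dimers that bring type I and type II receptor kinases together, and the receptors then phosphorylate SMAD transcription factors. TGF-beta and activin act mainly through Smad2 and Smad3, BMPs mainly through Smad1, Smad5 and Smad9, and both branches share Smad4. In adipose tissue TGF-beta and activin are known to hold progenitors in a proliferating, matrix-producing state, while BMP4 is known to commit them to the fat lineage.

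Values are CPM, reads of a gene scaled to library size and multiplied by the authors' factor. The depth was 24586827 to 26000090 reads, 1 read was worth 0.0359 to 0.0434 CPM, and 0 reads allowed up to 0.108 to 0.130 CPM (3 reads, counting error only). Of the marker lists that of progenitors and fibroblasts had the highest sum in each library, its 10 genes adding up to 9602 and 12988 CPM in ObF1 and LnF1 with 1,3BD and to 28261 and 27467 CPM in ObF1 and LnF1 with water. Most of that gap was Col1a1, at 3371 and 4307 CPM with 1,3BD against 18761 and 16522 CPM with water. Col3a1 (5239 and 7941 CPM against 8263 and 9400 CPM) and Thy1 (281 and 157 CPM against 749 and 651 CPM) were also lower with 1,3BD. So were Dpp4 and Lum, which reached no more than 0.869 and 6.54 CPM. Pdgfra was higher with 1,3BD (412 and 281 CPM against 236 and 243 CPM), and Dcn, Pi16, Ly6a and Cd34 overlapped between treatments. Markers of leukocytes and endothelial cells, which a stromal vascular fraction normally holds, were low. The 8 leukocyte markers summed to 4.09 to 18.9 CPM, with Lyz2 reaching 12.2 CPM, Csf1r 6.13 CPM and Ptprc 0.150 CPM, and Cd3e and Cd79b at 0 reads. The 7 endothelial markers summed to 1.29 to 20.7 CPM, with Cdh5 reaching 7.21 CPM and Emcn 5.69 CPM. The 9 mural and contractile markers summed to 381 and 352 CPM in ObF1 and LnF1 with 1,3BD, against 9749 and 8949 CPM with water. The mitochondrial share of reads was 5.80% and 2.78% in ObF1 and LnF1 with 1,3BD, against 1.30% and 1.13% with water. The endothelial sum was 2.77 and 1.29 CPM with 1,3BD, against 20.7 and 7.89 CPM with water, in the same order, and the 4 skeletal muscle markers, carried by Acta1, to 3.41 and 2.55 CPM with 1,3BD against 63.0 and 87.6 CPM with water. These sums and the mitochondrial share moved with the treatment, and their part in the results below was not tested. In such bulk RNA, fewer cells of a type and less RNA per cell cannot be told apart.

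The sequence upstream of the gene start is shown for 4 members that passed the treatment test described below, 2 of them lower (Inhba, Grem1) and 2 higher (Tgfbr1, Id2), chosen after their values were seen, because SMAD proteins bind short motifs in such regions. RefSeq promoter windows (GRCm38.p6) matched 36 of the 52 members at 43 starts, and the 250 bases before each start were searched on both strands for CAGACA and GGCGCC, which SMADs bind, GGAATG, which TEAD factors bind, and TGANTCA, which AP-1 binds. The windows lie at chr13:16011601-16011850 (plus strand) for Inhba, chr2:113758649-113758898 (minus strand) for Grem1, chr4:47352972-47353221 (plus strand) for the upstream start of Tgfbr1, and chr12:25096093-25096342 (minus strand) for Id2. Each is written 5′ to 3′ on the gene's strand with the motif matches in capitals.
Inhba: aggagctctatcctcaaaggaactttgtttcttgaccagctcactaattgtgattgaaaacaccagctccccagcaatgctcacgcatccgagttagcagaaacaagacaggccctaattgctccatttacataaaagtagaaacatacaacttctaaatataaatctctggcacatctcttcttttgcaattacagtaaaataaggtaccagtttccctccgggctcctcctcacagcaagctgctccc
Grem1: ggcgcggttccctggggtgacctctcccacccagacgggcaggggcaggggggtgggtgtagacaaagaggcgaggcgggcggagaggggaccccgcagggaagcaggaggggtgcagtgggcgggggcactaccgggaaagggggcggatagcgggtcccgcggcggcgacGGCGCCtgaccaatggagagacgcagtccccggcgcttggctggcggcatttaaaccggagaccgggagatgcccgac
Tgfbr1: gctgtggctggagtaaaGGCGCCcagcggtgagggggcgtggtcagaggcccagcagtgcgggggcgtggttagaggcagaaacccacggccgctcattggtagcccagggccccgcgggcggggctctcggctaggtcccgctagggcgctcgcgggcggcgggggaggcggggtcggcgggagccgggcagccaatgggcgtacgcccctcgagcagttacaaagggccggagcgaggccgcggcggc
Id2: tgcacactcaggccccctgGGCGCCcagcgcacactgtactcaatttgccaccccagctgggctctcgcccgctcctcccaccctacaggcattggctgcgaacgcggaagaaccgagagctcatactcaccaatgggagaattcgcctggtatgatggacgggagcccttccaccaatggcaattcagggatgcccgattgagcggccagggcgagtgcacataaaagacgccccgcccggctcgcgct
The capitals mark GGCGCC once each in Grem1, Tgfbr1 and Id2, and the Inhba window held none of the 4 motifs. GGCGCC stood in 14 of the 43 member windows (32.6%), against 9.59% of 32851 windows of all genes, and these windows were rich in G and C, with medians of 64.0% for higher, 67.2% for lower and 68.2% for other members, against 52.4% for all windows. It stood in 4 of the 7 windows of higher members and 4 of the 12 windows of lower members. CAGACA stood in 11.6% of member windows and 17.1% of all, GGAATG in 6.98% and 12.6%, and TGANTCA in 0% and 6.75%. A match is only a run of letters and says nothing about binding in these cells.

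The first comparison asked how the pathway's genes differ between 1,3BD and water. With 1,3BD, 5 of the 8 members grouped as TGF-beta ligands and latency proteins fell, led by Tgfb3, and 0 rose. The others that fell were Tgfb1, Ltbp1, Ltbp2 and Tgfbi, of which Ltbp2 and Tgfbi are neither ligands nor proteins that bind them latent. The receptors Tgfbr1 and Tgfbr3 rose and Acvrl1 fell. Among 5 activin and follistatin members Inhba and Fstl3 fell and Fst rose, the BMP antagonists Grem1 and Nbl1 fell, and 7 of 8 SMADs did not pass the test. Of the 48 members that 2 or more libraries held at 1 CPM or above, 8 were higher (16.7%) and 14 lower (29.2%) in a limma fit adjusted over all 12838 genes tested, where 19.2% were called higher and 24.8% lower, so the shares were near the background. With library totals in place of the authors' factors the calls were 12 higher and 13 lower among the members, and 3663 higher and 2283 lower over all genes against 2466 and 3189. The median log2 difference was -0.12 for the members and -0.06 for all genes tested, and 0.13 and 0.19 with library totals. Fits that left out 1 library also dropped the parents term. Each of them called fewer members higher and no more members lower than the additive fit. Over all genes tested each called fewer in both directions, so the loss was not particular to the members. Bmp4 and Gdf6 among the lower members reached 1 CPM only with water, and without such genes 12 of 45 members were lower (26.7%), against 23.4% of 12092 genes, and 8 higher (17.8%), against 18.6%. The other 4 members, Bmp2, Bmp7, Gdf5 and Chrdl1, had at most 29 reads in a library and were not tested.

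**Figure D1:**
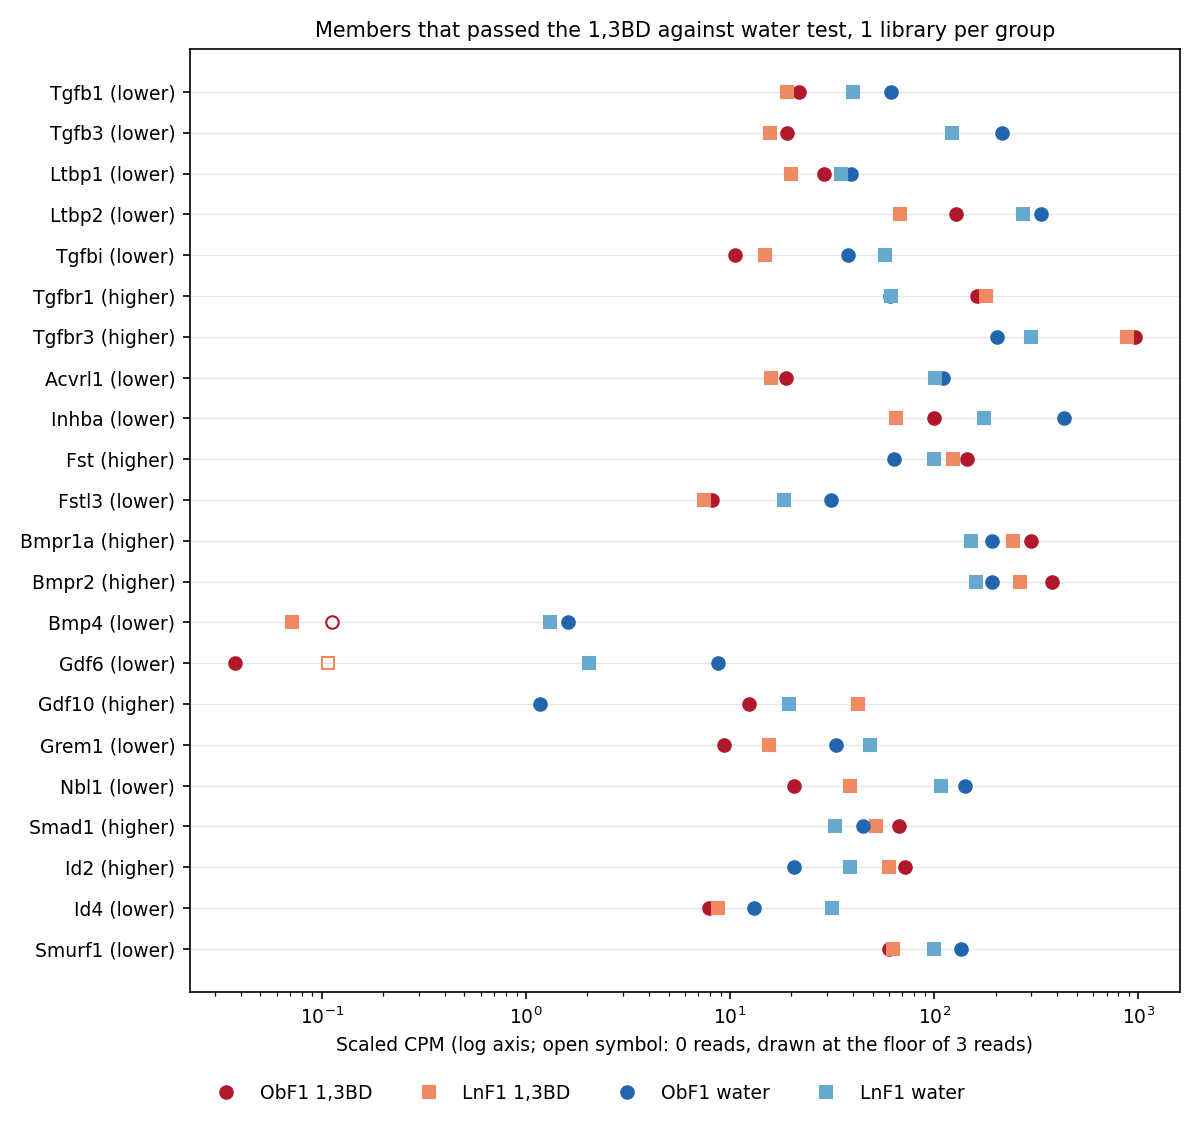
Scaled CPM on a log axis of the 22 members that passed the 1,3BD against water test, 1 symbol per library (red and orange for 1,3BD, blues for water) with the call in brackets; open symbols mark 0 reads, drawn at the level of 3 reads. The 1,3BD libraries stand apart from the water libraries for each gene except Gdf10, whose ObF1 1,3BD value of 12.4 CPM lies below its LnF1 water value of 19.4 CPM. The genes were chosen by that test on these same values, so the separation follows largely from the choice.

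Among the ligands, Tgfb3 (chr12:86056745-86079041, minus strand, GENCODE annotation of GRCm38) stood at 19.1 CPM in ObF1 and 15.8 CPM in LnF1 with 1,3BD, against 216 CPM in ObF1 and 122 CPM in LnF1 with water. Both 1,3BD libraries were far below both water libraries, and Tgfb3 fell 9.30-fold (log2 -3.22, SE 0.22, limma adjusted p = 1.97e-06). Of its exonic length 12.4% is shared with antisense gene models that had at most 0.297 CPM. Tgfb1, the most widely expressed isoform in the body, stood at 21.9 CPM in ObF1 and 19.0 CPM in LnF1 with 1,3BD, against 61.7 CPM in ObF1 and 39.9 CPM in LnF1 with water. It fell 2.43-fold (log2 -1.28, SE 0.23, limma adjusted p = 0.00109), a call lost when the ObF1 water library was left out (log2 -0.96, limma adjusted p = 0.0801). Tgfb2 stood at 51.8 CPM in ObF1 and 36.9 CPM in LnF1 with 1,3BD, against 62.2 CPM in ObF1 and 26.7 CPM in LnF1 with water, and did not pass (log2 0.10, limma adjusted p = 0.746).

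Per kilobase of exon, Tgfb3 was the leading TGF-beta ligand in both water libraries and Tgfb2 in both 1,3BD libraries. The Tgfb3 share of the summed level of the 3 ligands was 29.8% in ObF1 and 31.5% in LnF1 with 1,3BD, against 73.5% in ObF1 and 74.3% in LnF1 with water. The Tgfb2 share was 47.2% in ObF1 and 43.0% in LnF1 with 1,3BD, against 12.4% in ObF1 and 9.48% in LnF1 with water. The summed level was 18.9 CPM per kb in ObF1 and 14.8 in LnF1 with 1,3BD, against 86.7 in ObF1 and 48.6 in LnF1 with water. These lengths are unions of all annotated exons, so shares depend on which transcripts the cells use.

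Latent TGF-beta binding proteins anchor the inactive ligand in the matrix, although Ltbp2 does not bind it and is known for its part in elastic fibres. Ltbp2 stood at 128 CPM in ObF1 and 67.8 CPM in LnF1 with 1,3BD, against 333 CPM in ObF1 and 273 CPM in LnF1 with water, and fell 3.24-fold (log2 -1.70, SE 0.21, limma adjusted p = 0.000127). Ltbp1 stood at 28.8 CPM in ObF1 and 19.8 CPM in LnF1 with 1,3BD, against 39.1 CPM in ObF1 and 34.9 CPM in LnF1 with water. Its groups did not overlap, but the call was marginal (log2 -0.63, SE 0.22, limma adjusted p = 0.0412) and was lost in edgeR (adjusted p = 0.0609) and DESeq2 (adjusted p = 0.0983), with library totals (limma adjusted p = 0.189), without the covariate (0.0848), and without LnF1 1,3BD (0.274), ObF1 water (0.310) or LnF1 water (0.218). Ltbp3 (182 to 241 CPM) and Ltbp4 (9.97 to 22.4 CPM) did not pass. Tgfbi, a matrix protein gene named for its induction by TGF-beta, stood at 10.6 CPM in ObF1 and 14.9 CPM in LnF1 with 1,3BD, against 37.8 CPM in ObF1 and 57.2 CPM in LnF1 with water, and fell 3.70-fold (log2 -1.89, SE 0.22, limma adjusted p = 8.23e-05).

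The receptors moved in both directions. Tgfbr3, which encodes betaglycan, the coreceptor that presents TGF-beta2 and inhibin (chr5:107106570-107289629, minus strand), stood at 962 CPM in ObF1 and 883 CPM in LnF1 with 1,3BD, against 203 CPM in ObF1 and 299 CPM in LnF1 with water. It rose 3.73-fold (log2 1.90, SE 0.23, limma adjusted p = 8.91e-05). Tgfbr1, the type I receptor kinase of TGF-beta whose upstream sequence is printed above, stood at 162 CPM in ObF1 and 180.4 CPM in LnF1 with 1,3BD, against 61.1 CPM in ObF1 and 61.7 CPM in LnF1 with water. The pools of each treatment were close to each other, and Tgfbr1 rose 2.78-fold (log2 1.48, SE 0.19, limma adjusted p = 0.000159). Tgfbr2, the type II partner, ranged from 279 to 366 CPM over the libraries and did not pass (log2 0.22, limma adjusted p = 0.398). Acvrl1, also called ALK1, a type I receptor best known from endothelial cells, stood at 18.7 CPM in ObF1 and 15.9 CPM in LnF1 with 1,3BD, against 110.5 CPM in ObF1 and 101 CPM in LnF1 with water. It fell 6.10-fold (log2 -2.61, SE 0.21, limma adjusted p = 5.49e-06). The sum of the endothelial markers given above was also lower with 1,3BD, where 24.8% of all genes tested were called lower. Cdh5 stood at 1.54 CPM in ObF1 and 0.287 CPM in LnF1 with 1,3BD, against 7.21 CPM in ObF1 and 2.80 CPM in LnF1 with water. Kdr, Vwf and Tie1 stood at 1.61, 0.695 and 1.48 CPM in ObF1 water and at no more than 0.509 CPM in LnF1 water. With 1,3BD they had at most 0.337 CPM. Cldn5 had at most 0.0424 CPM in any library. The part of these markers in the Acvrl1 difference was not tested.

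**Figure D2:**
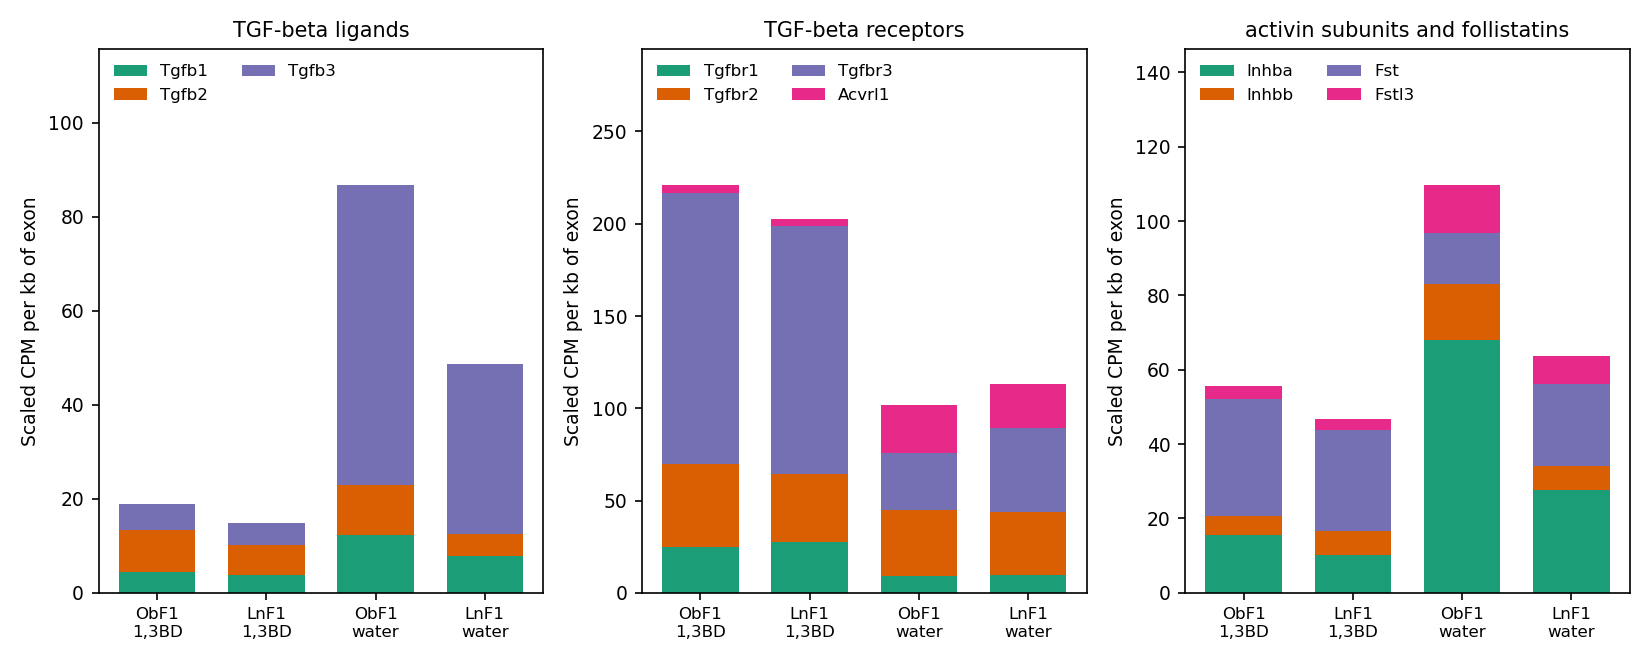
Scaled CPM per kb of exon, stacked by gene, in the 4 libraries for 3 TGF-beta ligands (left), 4 TGF-beta receptors (middle) and activin subunits with Fst and Fstl3 (right), 1 bar per library. Tgfb3 makes up 73.5% and 74.3% of the ligand bar in the water libraries, and Tgfbr3 makes up 66.5% of the receptor bar in both 1,3BD libraries.

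Per kilobase, Tgfbr3 was 66.5% of the summed level of these 4 receptors in ObF1 and in LnF1 with 1,3BD, against 30.5% in ObF1 and 40.5% in LnF1 with water. Acvrl1 was 1.99% in ObF1 and 1.83% in LnF1 with 1,3BD, against 25.4% in ObF1 and 20.9% in LnF1 with water. Of the receptors for activin and BMP, 2 of 5 rose and 0 fell, where 19.2% and 24.8% of all genes tested did. Bmpr2, the type II BMP receptor, stood at 377 CPM in ObF1 and 265 CPM in LnF1 with 1,3BD, against 192 CPM in ObF1 and 159.8 CPM in LnF1 with water (log2 0.85, SE 0.20, limma adjusted p = 0.00524). Bmpr1a, a type I BMP receptor, stood at 299.7 CPM in ObF1 and 245 CPM in LnF1 with 1,3BD, against 191 CPM in ObF1 and 152 CPM in LnF1 with water (log2 0.67, SE 0.19, limma adjusted p = 0.0162). Both were higher in each 1,3BD library than in either water library. Their calls were lost without ObF1 1,3BD (limma adjusted p = 0.129 for Bmpr2 and 0.186 for Bmpr1a), without ObF1 water (0.0791 and 0.0992) and without LnF1 water (0.188 and 0.308), and that of Bmpr1a also without the covariate (0.0544). Acvr1, Acvr2a and Acvr2b did not pass, and Acvr2b, with at least 1 CPM only in the 1,3BD libraries, reached no more than 1.72 CPM.

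In the activin branch, Inhba, the subunit of activin A (chr13:16011851-16031621, plus strand), stood at 99.6 CPM in ObF1 and 65.1 CPM in LnF1 with 1,3BD, against 435 CPM in ObF1 and 176 CPM in LnF1 with water. It fell 3.44-fold (log2 -1.78, SE 0.22, limma adjusted p = 0.000103). Follistatin, Fst, which binds and neutralises activin, stood at 145 CPM in ObF1 and 124 CPM in LnF1 with 1,3BD, against 63.3 CPM in ObF1 and 100.2 CPM in LnF1 with water. It rose 1.68-fold (log2 0.75, SE 0.23, limma adjusted p = 0.0241). The follistatin relative Fstl3, another activin inhibitor, went the other way, with 8.14 CPM in ObF1 and 7.46 CPM in LnF1 with 1,3BD, against 31.2 CPM in ObF1 and 18.4 CPM in LnF1 with water (log2 -1.61, SE 0.26, limma adjusted p = 0.000684). Exons of Fstl3 overlap those of Prss57 on the other strand over 47.3% of their length, but Prss57 had at most 0.251 CPM. Per kilobase, Fst stood at 31.5 and Inhba at 15.6 in ObF1 with 1,3BD and at 27.1 and 10.2 in LnF1 with 1,3BD, against 13.8 and 68.0 in ObF1 with water and 21.8 and 27.6 in LnF1 with water, so that the order of the levels was opposite in the 2 treatments. Inhbb (21.6 to 64.1 CPM) and Fstl1, the most abundant member at 3225 to 3876 CPM, did not pass. Leaving out 1 library ended the Inhba call without ObF1 1,3BD (limma adjusted p = 0.109), LnF1 1,3BD (0.165) or ObF1 water (0.0567), and its log2 difference was -1.13 without ObF1 water and -2.43 without LnF1 water. It ended the Fst call without ObF1 1,3BD (0.178), LnF1 1,3BD (0.0646) or ObF1 water (0.343), as did leaving out the covariate (0.0534), and the Fstl3 call without ObF1 water (0.0637).

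Among the members, BMP and GDF ligands other than Gdf10 and Gdf11 reached no more than 9.78 CPM. Of these Bmp4 and Gdf6 passed, with few or no reads with 1,3BD. Bmp4 had 0 and 2 reads in ObF1 and LnF1 with 1,3BD, against 37 and 31 reads with water (1.61 and 1.32 CPM). It was at least 14.3-fold lower in ObF1 against a floor of 3 reads per library (lower 95% exact counting limit 11.1-fold) and 18.3-fold lower in LnF1 (95% exact counting interval 4.67 to 158). Gdf6, a growth factor of skeletal development (chr4:9844372-9862345, plus strand), had 1 and 0 reads in ObF1 and LnF1 with 1,3BD, against 201 and 48 reads with water (8.73 and 2.04 CPM). It was 233-fold lower in ObF1 (95% exact counting interval 41.3 to 9243) and at least 18.9-fold lower in LnF1 against the same floor (lower 95% exact counting limit 14.8-fold). Both passed (limma adjusted p = 0.000669 and 3.56e-05), but both entered the test only through the water libraries, so that they had to differ. The log2 difference of Gdf6 was -4.45 without ObF1 water and -6.51 without LnF1 water. Bmp2 had 5 reads, all in ObF1 water, Bmp7 had 4 in ObF1 and 1 in LnF1 with 1,3BD, and Gdf5 had 2, all in LnF1 water. Bmp6 (3.98 to 9.78 CPM), Gdf11, a close relative of myostatin (26.0 to 40.2 CPM), and Gdf15, a stress-induced hormone (1.24 to 5.85 CPM), did not pass. Bmp1, a metalloprotease that trims procollagens and chordin and is no ligand, ranged from 383 to 568 CPM and did not pass.

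Gdf10, a BMP3-like ligand (chr14:33923587-33937983, plus strand), stood at 12.4 CPM in ObF1 and 42.6 CPM in LnF1 with 1,3BD, against 1.17 CPM in ObF1 and 19.4 CPM in LnF1 with water. It was higher with 1,3BD within each parental group, although the groups overlapped when parents were pooled (log2 2.22, SE 0.51, limma adjusted p = 0.0157). Within the parental groups the log2 difference was 3.31 in ObF1 and 1.13 in LnF1. The fits that left out 1 library also dropped the parents term, so they mix in the gap between parental groups. In them the log2 difference was 0.25 without ObF1 water, where the call was lost, and 4.20 without LnF1 water. It was 3.11 without ObF1 1,3BD and 1.34 without LnF1 1,3BD. The call was also lost without ObF1 1,3BD (limma adjusted p = 0.573), without LnF1 1,3BD (0.768) and without the covariate (0.391).

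Of 3 tested BMP antagonists and decoys 2 fell and 0 rose, where 24.8% and 19.2% of all genes tested did. Grem1, encoding gremlin, whose upstream sequence is printed above, stood at 9.34 CPM in ObF1 and 15.6 CPM in LnF1 with 1,3BD, against 32.9 CPM in ObF1 and 48.3 CPM in LnF1 with water (log2 -1.72, SE 0.23, limma adjusted p = 0.000180). Nbl1, encoding the DAN antagonist, stood at 20.7 CPM in ObF1 and 38.9 CPM in LnF1 with 1,3BD, against 141.8 CPM in ObF1 and 109 CPM in LnF1 with water (log2 -2.13, SE 0.29, limma adjusted p = 0.000464). Both 1,3BD libraries lay below both water libraries for each gene, and the Grem1 call was lost without LnF1 water (limma adjusted p = 0.0532). Chrdl1, a chordin-like antagonist, had 3 and 4 reads in ObF1 and LnF1 with 1,3BD, against 19 and 29 reads with water, and was not tested. Bambi, a decoy receptor without a kinase, ranged from 6.49 to 14.9 CPM and did not pass.

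Inside the cell 1 of 8 SMADs was called higher and 0 lower, where 19.2% of all genes tested were called higher and 24.8% lower. Smad1, a BMP-branch SMAD, stood at 67.2 CPM in ObF1 and 51.7 CPM in LnF1 with 1,3BD, against 44.9 CPM in ObF1 and 32.7 CPM in LnF1 with water (log2 0.62, SE 0.21, limma adjusted p = 0.0302). That call was lost without ObF1 1,3BD (limma adjusted p = 0.275), ObF1 water (0.102), LnF1 water (0.436) or the covariate (0.0813). The log2 differences of Smad2, Smad3, Smad4 and Smad5 were -0.26, -0.07, 0.32 and 0.07, those of the inhibitory Smad6 and Smad7 were -0.12 and -0.03, and that of Smad9 was 0.88 (limma adjusted p = 0.0639), none of which passed. Smurf1, a ubiquitin ligase that marks SMADs and receptors for breakdown, stood at 60.3 CPM in ObF1 and 63.0 CPM in LnF1 with 1,3BD, against 136 CPM in ObF1 and 99.8 CPM in LnF1 with water (log2 -0.92, SE 0.21, limma adjusted p = 0.00474). It was lost without ObF1 water (limma adjusted p = 0.134). Smurf2 and the corepressors Ski and Skil did not pass (log2 0.30, -0.10 and 0.26).

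The ID genes, classical BMP targets whose proteins hold other helix-loop-helix factors off DNA, split. Id2 stood at 71.7 CPM in ObF1 and 60.1 CPM in LnF1 with 1,3BD, against 20.6 CPM in ObF1 and 38.7 CPM in LnF1 with water, and rose 2.32-fold (log2 1.21, SE 0.28, limma adjusted p = 0.00615). Id4 stood at 7.91 CPM in ObF1 and 8.75 CPM in LnF1 with 1,3BD, against 13.2 CPM in ObF1 and 31.7 CPM in LnF1 with water, and fell 2.44-fold (log2 -1.29, SE 0.30, limma adjusted p = 0.00584). The groups did not overlap for either gene. Id1 (18.3 to 32.3 CPM) and Id3 (65.1 to 143.7 CPM) did not pass, and the low Id3 value was that of ObF1 1,3BD alone, the other 3 libraries lying at 141.9 to 143.7 CPM. The Id2 call was lost without ObF1 1,3BD (limma adjusted p = 0.114), LnF1 1,3BD (0.0524) or ObF1 water (0.121), and the Id4 call without ObF1 1,3BD (0.231), LnF1 1,3BD (0.160) or LnF1 water (0.298). The log2 difference of Id4 was -1.92 without ObF1 water and -0.66 without LnF1 water.

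**Figure D3:**
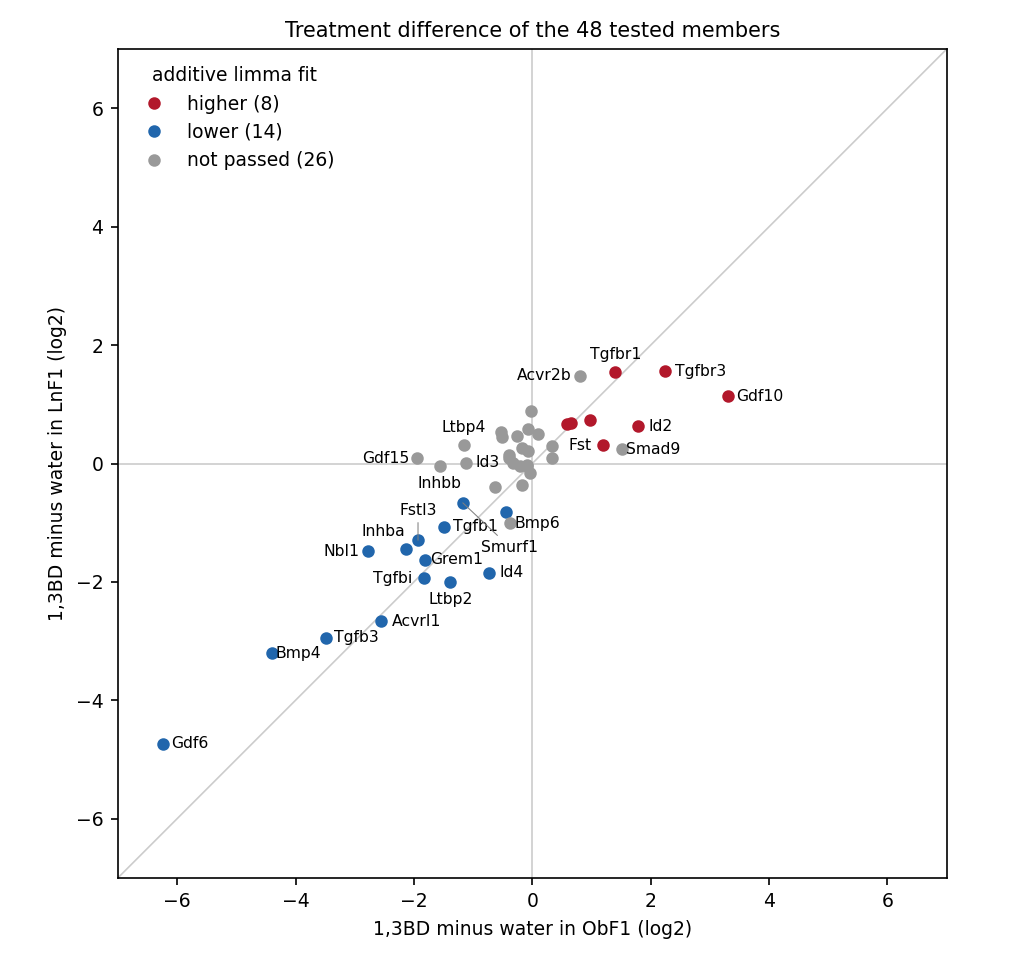
Log2 difference of 1,3BD minus water in ObF1 (horizontal) and in LnF1 (vertical) for the 48 tested members, 1 point per gene, coloured by the call of the additive limma fit; the diagonal marks equal differences. All 22 called members lie in the lower left or upper right quadrant, with Gdf6, Bmp4, Tgfb3 and Acvrl1 lowest and Tgfbr3 and Gdf10 farthest right. The calls come from these same differences, so the shared direction follows largely from the choice.

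With each parental group taken alone, differences of at least 2-fold were counted among the 44 members with a mean of at least 5 CPM. In ObF1, 6 members were higher (13.6%) and 13 lower (29.5%), where 10.7% and 17.4% of all 10238 such genes were. In LnF1, 3 were higher (6.82%) and 11 lower (25%), where 8.86% and 14.2% of all were. Both pairs reached 2-fold for 3 higher members, Tgfbr1, Tgfbr3 and Gdf10, and for 9 lower ones, Tgfb1, Tgfb3, Ltbp2, Tgfbi, Acvrl1, Inhba, Fstl3, Grem1 and Nbl1, where 5.92% and 10.9% of all genes were so.

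The second comparison asked how ObF1 differed from LnF1. No member passed in either direction (0 of 48 in limma and 0 in edgeR), where 0.195% of all genes tested were called higher and 0.101% lower. An unadjusted limma p under 0.05 was reached by 14 of 48 members, and by 1392 of all 12838 genes tested. DESeq2 called Inhba higher and Gdf10 lower. The members had a median log2 difference of 0.17, against 0.01 for all genes tested. Of the 44 members with a mean of at least 5 CPM, 19 were higher in ObF1 in both treatments (43.2%) and 10 lower in both (22.7%), where 31.7% and 27.9% of all such genes were.

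Gdf10 was the member at least 2-fold lower in ObF1 in both treatments, 1 of 44 where 0.273% of all genes were, and no member was so higher, where 0.440% were. It stood at 12.4 CPM in ObF1 against 42.6 CPM in LnF1 with 1,3BD and at 1.17 CPM in ObF1 against 19.4 CPM in LnF1 with water (log2 -2.87, SE 0.51, limma adjusted p = 0.140, DESeq2 adjusted p = 1.45e-07). Inhba stood at 99.6 CPM in ObF1 against 65.1 CPM in LnF1 with 1,3BD and at 435 CPM in ObF1 against 176 CPM in LnF1 with water (log2 0.96, SE 0.22, limma adjusted p = 0.120, DESeq2 adjusted p = 0.0415). Tgfb2 gave 0.85 (SE 0.24, limma adjusted p = 0.206), with the wider gap in water. With water, Tgfb2, Inhba and Inhbb were at least 2-fold higher in ObF1 and Gdf10 and Id4 lower, 3 (6.82%) and 2 (4.55%) of 44, where 1.81% and 1.40% of all genes were. With 1,3BD, 0 members were that much higher and 4 (9.09%) lower, namely Ltbp4, Gdf10, Bambi and Id3, where 1.89% and 3.02% of all genes were.

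**Figure D4:**
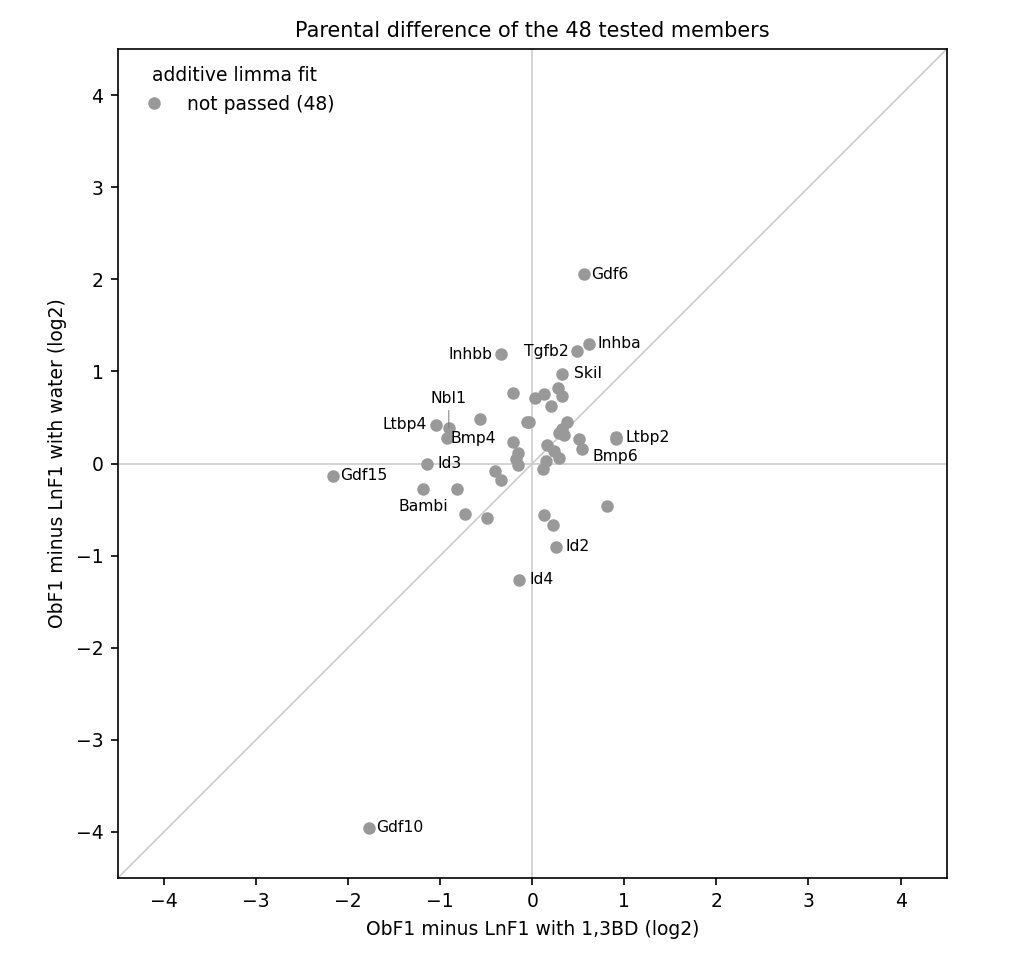
Log2 difference of ObF1 minus LnF1 with 1,3BD (horizontal) and with water (vertical) for the 48 tested members, 1 point per gene, none of which passed the additive limma fit; the diagonal marks equal differences. Gdf10 lies far below 0 in both treatments, while Inhba and Tgfb2 are among the members above 0 in both. Gdf6 is drawn above 0 in both as well, but with 1,3BD it had 1 read in ObF1 against 0 in LnF1.

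The treatment difference was also set between the parental groups, as the difference in ObF1 minus that in LnF1, which this design cannot test. It reached 2-fold in 9 of 44 members, where 6.93% of all genes at that level did, with 4 members positive (3.40% of all genes) and 5 negative (3.53%). The positive ones were Gdf10 (2.18), Smad9 (1.28), Id2 (1.16) and Id4 (1.12), and the negative ones Inhbb (-1.52), Ltbp4 (-1.47), Nbl1 (-1.29), Id3 (-1.14) and Bmp1 (-1.05). Inhbb stood at 21.6 CPM in ObF1 and 27.3 CPM in LnF1 with 1,3BD, against 64.1 CPM in ObF1 and 28.1 CPM in LnF1 with water, so that ObF1 water stood apart. Log2 differences of at least 1.25-fold in size ran opposite ways in the 2 treatments for 5 members between the parental groups, where 4.74% of all genes did, and opposite ways in the 2 parental groups for 2 members between 1,3BD and water, where 2.15% did.

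Other genes of the pathway were set beside the members, listed by their textbook roles but with earlier results of these data known. Their counts are thus no independent support for those of the members. Of 101 listed, 66 were tested, and 11 rose (16.7%) and 24 fell (36.4%) with 1,3BD, where 19.2% and 24.8% of all genes tested did, with a median log2 difference of -0.28. Each count in the shorter lists below is to be read against the same shares. Among 15 textbook TGF-beta target genes, which also answer to other signals, 9 fell and 0 rose (median -1.08), led by Ctgf at -6.10 (SE 0.19, limma adjusted p = 1.11e-08), the smooth muscle actin gene Acta2 at -5.86 and Tagln, encoding the actin-binding transgelin, at -4.01. Ctgf, a matrix-associated growth factor, stood at 29.2 CPM in ObF1 and 8.57 CPM in LnF1 with 1,3BD, against 2033 CPM in ObF1 and 585 CPM in LnF1 with water. Acta2 and Tagln are also among the 9 mural and contractile markers, whose sums moved the same way. The Ctgf call was lost without ObF1 1,3BD (limma adjusted p = 0.0708) or LnF1 1,3BD (0.0799). Between the parental groups Ctgf was the only one of the 66 that passed in the additive fit, higher in ObF1 (log2 1.78, SE 0.19, limma adjusted p = 0.00163), a call lost without the treatment term (1.00) and in each fit that left out 1 library (0.997 to 1.00), which also lack that term. Exons of Tagln share 67.9% and those of Ctgf 23.2% of their length with other gene models, so that their values are uncertain where strand was not used in counting. Among 7 tested BMP target genes, Alpl, the alkaline phosphatase of bone, and Hey1, a Notch and BMP target, rose (log2 4.10 and 1.33), and Hes1, known mainly as a Notch target, fell (-2.44). Hey1 reached 1 CPM only with 1,3BD, so that it had to differ, and its call was lost in DESeq2 (adjusted p = 0.0998), without the covariate (limma adjusted p = 0.0861) and without LnF1 1,3BD (0.447), ObF1 water (0.218) or LnF1 water (0.212).

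Of 17 tested antagonists, latency and activation proteins, 2 rose and 6 fell (median -0.75), led by Thbs1, encoding thrombospondin 1, which can activate latent TGF-beta (1205 CPM in ObF1 and 1151 CPM in LnF1 with 1,3BD, against 20404 and 17365 CPM with water), Pcolce, an enhancer of Bmp1 (log2 -2.11), and Crim1, a BMP-binding membrane protein (-1.55). One of the 6, Fstl4, reached 1 CPM only with water, so that it had to differ. Of 6 tested further receptors, 1 rose and 3 fell, led by the type I BMP receptor Bmpr1b (-1.88), the coreceptor Eng, encoding endoglin (-1.64), and Rgma, a BMP coreceptor (-1.24). Among 17 SMAD regulators 5 rose and 4 fell (median 0.22), with Wwp2, a ubiquitin ligase, at -1.90, Fkbp1a, which guards type I receptors, at -1.41, and Trim33, a ubiquitin ligase that acts on SMAD4, at 0.91. Of 19 further ligands 4 were tested, and Lefty1, an antagonist of Nodal, fell (-1.37) while Bmp8a rose (1.20). In DESeq2 neither passed (adjusted p = 0.0503 for Lefty1 and 0.0815 for Bmp8a). Leaving out 1 library, which also dropped the parents term, ended the Lefty1 call in all 4 cases. The calls of Bmp8a, Rgma, Crim1 and Trim33 ended in 3 of 4 cases each. Without LnF1 water Bmp8a stood at 0.14 and Rgma at -0.67, values that mix in the gap between parental groups. The Bmp8a call was also lost without the covariate (limma adjusted p = 0.208).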

How the data were processed

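TRIzol RNA went into KAPA mRNA libraries, per the labels' protocols. Build mm10 and the tools edgeR and DESeq2 appear in the submitters' processing notes with no role stated. Aligner, counter and strand use: not given in the sources used here. The authors deposited a scaled signal per gene, in a table they named as raw counts. Within a column all values were whole multiples of 1 step (100% within a relative tolerance of 1e-06), which makes the unit CPM times a factor of 0.885 to 1.134 and gives back whole counts. Columns naming no treatment were taken as water.

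Members and lists were chosen with earlier results of these data known. Rows that pass, or move at least 2-fold in both pairs at a mean of 5 CPM, are given per library, with the 3 largest passing genes of each other list. limma 3.58.1 (R 4.3.3) was fitted to log2(CPM + 0.0796), worth 2 reads, over the 12838 genes that 2 or more libraries held at 1 CPM or above, additive in treatment and parents, with trend, robust moderation and 1 residual degree of freedom; fold changes on this scale understate those of low genes. P-values were Benjamini-Hochberg adjusted (threshold 0.05). Their error is the departure from additivity, drawn toward that of genes of similar level, so it is not a gene's own spread between pools. The fit was also run on simulated data, with the outcome not reported here, and no result above rests on it. Alternatives included edgeR 4.0.16 and DESeq2 1.42.0 on the recovered counts. Levels per kb use exon unions of the GENCODE GRCm38 annotation.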

Additional observations from a re-analysis of the deposited data

Results flagged for a closer look

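Members at a mean of at least 5 CPM whose differences were at least 1.25-fold in opposite directions under the 2 conditions of the other factor were singled out; with 1 library per group the difference between those conditions was not tested. ObF1 minus LnF1 ran opposite ways in the 2 treatments for 5 of 44 members, where 4.74% of all genes at that level did, given as log2 values with 1,3BD and then with water: Ltbp4 -1.05 and 0.42, Inhbb -0.34 and 1.19, Bmp1 -0.57 and 0.48, Nbl1 -0.91 and 0.38, and Smad9 0.81 and -0.47. The treatment difference, 1,3BD minus water, ran opposite ways in ObF1 and in LnF1 for 2 members, where 2.15% of all genes did: Bmp1, at -0.52 and 0.52, and Smad7, at -0.52 and 0.45.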

How the results depend on the processing

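No paired analysis was possible because each group holds 1 library and the labels carry no replicate numbers; the additive fit sets pools side by side by parental group, and the fit without the covariate does not. All 22 member calls for 1,3BD kept their sign under the 12 alternatives, except that Bmp4 and Gdf6 were not tested at a mean of 5 CPM, and 9 of them passed in each fit that left out 1 library (Tgfb3, Ltbp2, Tgfbi, Tgfbr1, Tgfbr3, Acvrl1, Bmp4, Gdf6 and Nbl1), of which Bmp4 and Gdf6 reached 1 CPM only with water and had to differ. Where both 1,3BD libraries lay on one side of both water libraries, leaving out 1 library could not change the sign. The fits that left out 1 library also drop the covariate, keep 1 residual degree of freedom and assume that a lone library varies like the others. They called 2 to 6 members higher (8 in the additive fit) and 9 to 14 lower (14), and over all genes 668 to 1926 higher (2466) and 1232 to 2731 lower (3189). Without the covariate 4 members were higher. Members that had not passed changed sign in 89 cases, 73 of them with a library left out and 11 with library totals, which moved the median gene for treatment to 0.19 on the log2 scale from -0.06 and called 12 members higher. Between parents, members called were 1 higher and 1 lower in DESeq2 (Inhba, Gdf10) and 2 higher and 1 lower without a filter (Tgfb2 and Inhba, Gdf10). Over all genes the parental calls, 25 higher and 13 lower, became 69 and 48 in DESeq2, 196 and 156 without a filter, 8 and 5 with a pseudocount of 1 CPM, 10 and 5 at a mean of 5 CPM, 16 higher with library totals, 0 and 0 without the covariate, and 0 higher and 0 to 2 lower with 1 library left out. Ctgf between parents (1.78) gave -1.26 without LnF1 1,3BD, -1.28 without ObF1 water, 4.84 without ObF1 1,3BD and 4.82 without LnF1 water, where the treatment term is dropped and the groups hold unequal shares of 1,3BD libraries. For the rest the cause was not tested. Counts of members past 2-fold stayed within 1.5 times under the other pseudocount and scalings.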
